A study of Mus musculus with 36 samples.

Results

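The collagen VI chain genes Col6a1, Col6a2 and Col6a3 were followed through a set of 36 RNA-seq libraries from mouse breast cancer cell lines. They were chosen by their higher level in AT-3 cells given the compound BMS204352, so that difference is described here without a test. These are 3 of the 32285 mouse gene IDs in the count table, and all 3 passed the filter on low counts in both lines. The other collagen VI genes, Col6a4, Col6a5 and Col6a6, reached at most 26, 2 and 6 counts in any library and were not tested.

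AT-3 and E0771 cells grew for 24 h in 6-well dishes before a treatment of 24 h. Each line was given 40 mM KCl with 10 µM BMS204352, 40 mM KCl with 10 µM NS11021, 40 mM KCl alone, 10 µM BMS204352, 10 µM NS11021, or DMSO, the solvent control, with 3 libraries in each of the 12 groups. The labels name DMSO for the DMSO groups only. NS11021 opens the BK potassium channel, BMS204352 opens BK and KCNQ channels, and raised extracellular potassium depolarises the cell membrane. Both lines are established transplantable mouse mammary tumour lines, AT-3 from a tumour driven by the MMTV-PyMT transgene, so each stands for a single tumour.

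Collagen VI is a matrix protein that forms beaded microfilaments close to the cell surface. Col6a1 and Col6a2 encode the short α1 and α2 chains, and Col6a3 encodes the long α3 chain. One chain of each kind is joined inside the cell, and these units are paired and stacked before secretion, so that the loss of a chain can prevent assembly. In mouse mammary tumours fibroblasts and adipocytes are known sources of the protein, and endotrophin, a fragment cut from the end of the α3 chain, has been studied as a signal to tumour cells.

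The libraries held 31.2 to 52.6 M counts. Levels are given as CPM, counts per M of the library total scaled by the trimmed mean of M-values. They are given per kb of exon where genes are compared, with the caveat that the exon length is the union over annotated isoforms. That union is 4380 bases for Col6a1, 8326 for Col6a2 and 11963 for Col6a3, so the gaps between chains per kb depend on it. In AT-3 the third BMS204352 library stood apart: 284 of 11214 genes lay over 2-fold from the mean of its mates, against 58 and 64 for those mates. The third AT-3 KCl+BMS204352 library had 63 such genes and the third E0771 BMS204352 library 49, while libraries without BMS204352 had at most 20. Values are therefore given with and without replicate 3 of the groups that received BMS204352. A sum over 34 genes specific to E0771 came to at most 1.21 CPM in any AT-3 library, against at least 1690 CPM in E0771 libraries, by a rule chosen after seeing the data. Nothing in the labels says that replicates came from separate cultures, so p-values measure only the spread between these libraries, which may be technical. In bulk RNA, fewer cells of a type and less RNA per cell cannot be told apart. The share of all genes whose groups do not overlap is not given, so a lack of overlap between groups is a description only.

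The labels call both lines breast cancer cells. The 6 epithelial markers summed to 200 to 206 CPM in E0771 DMSO libraries, nearly all of it Krt8, with Krt5 at 0 and Cdh1 at 1.41 CPM. In AT-3 DMSO libraries they summed to 2120 to 2265 CPM, led by Krt14, with Krt8 at 0.346 CPM. The 5 leukocyte markers summed to 10.2 to 11.2 CPM in E0771 and 4.54 to 6.24 CPM in AT-3 DMSO libraries, with 2 of the 5 at 0 in each line, Ptprc among them. The 5 endothelial markers summed to 0.654 to 1.02 CPM in E0771 and 1.68 to 1.89 CPM in AT-3 DMSO libraries, with only Emcn at 0 in all of them.

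All 3 genes lie on the minus strand of the mouse genome (GRCm38). Col6a1 (ENSMUSG00000001119) lies at chr10:76708792-76726168 and Col6a2 (ENSMUSG00000020241) at chr10:76595762-76623630, with 85161 bases between them. Col6a3 (ENSMUSG00000048126) lies on another chromosome, at chr1:90765923-90843971. None of the exon bases of the 3 genes is shared with another annotated gene. The sequence just upstream of each gene is shown as a description. The genes lie on separate chromosomes or apart on one, and their shared rise with BMS204352 in AT-3 is what they were chosen for. The sequences are from RefSeq, build GRCm38.p6, minus strand, at chr10:76726169-76726294 for Col6a1 (126 bases), chr10:76623631-76623880 for Col6a2 (250 bases) and chr1:90843972-90844221 for Col6a3 (250 bases). Capitals mark the match to the Sp1 motif described after them.
Col6a1: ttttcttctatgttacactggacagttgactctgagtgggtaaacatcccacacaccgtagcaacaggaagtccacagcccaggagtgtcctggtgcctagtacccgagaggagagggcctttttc
Col6a2: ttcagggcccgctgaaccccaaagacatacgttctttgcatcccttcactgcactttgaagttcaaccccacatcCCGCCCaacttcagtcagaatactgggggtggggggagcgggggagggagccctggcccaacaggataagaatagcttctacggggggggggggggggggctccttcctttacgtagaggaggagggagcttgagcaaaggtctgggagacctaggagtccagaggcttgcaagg
Col6a3: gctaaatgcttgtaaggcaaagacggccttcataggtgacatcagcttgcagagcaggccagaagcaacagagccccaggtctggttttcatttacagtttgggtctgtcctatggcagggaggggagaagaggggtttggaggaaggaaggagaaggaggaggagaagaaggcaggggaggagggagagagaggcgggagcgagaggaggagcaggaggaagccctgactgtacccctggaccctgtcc

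For Col6a1 the RefSeq start lies 124 bases inside the first exon of the GENCODE annotation, so only the bases upstream of that exon are printed. For Col6a2 the table held 2 RefSeq windows, and the one nearest the outermost GENCODE start was used. Motifs were searched on both strands in the 250 bases before each of 32851 RefSeq starts. The AP-1 motif TGANTCA was found in the Col6a1 window only, 90 to 84 bases upstream of the RefSeq start, and in 6.75% of all windows. That match lies outside the printed bases and inside the GENCODE first exon, which takes up 124 of the 250 bases of this window. The Sp1 motif GGGCGG was found before Col6a2 only, on the opposite strand 175 to 170 bases upstream, and in 32.7% of windows. No member window held the TEAD motif GGAATG (12.6% of windows), CCAAT (33.8%), TATAAA (12.4%), the heat shock element core, TTC and GAA with 2 bases between them (7.17%), or the CArG box (1.47%). None of the 7 motifs was therefore held by more than 1 of the chain genes in these windows.

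Col6a1 and Col6a2 were far higher in E0771 than in AT-3 cells, while Col6a3 was low in both lines. Per kb of exon, Col6a1 stood at 359 ± 11.2 CPM per kb in E0771 DMSO cells and 12.6 ± 2.31 in AT-3 DMSO cells (SD, n = 3 each, as for all means). Col6a2 stood at 88.8 ± 1.43 CPM per kb in E0771 DMSO cells and 4.01 ± 0.619 in AT-3 DMSO cells. Col6a3 was the lowest chain in both lines, at 2.06 ± 0.504 CPM per kb in E0771 DMSO cells and 1.52 ± 0.393 in AT-3 DMSO cells. Thus Col6a1 was above Col6a2 and Col6a2 above Col6a3 in both lines, with a far wider gap to Col6a3 in E0771.

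The line difference was tested in the KCl groups, whose libraries had no part in the choice of the genes. Col6a1 was 25.2-fold higher in E0771 KCl than in AT-3 KCl cells (95% interval 11.2 to 56.4, edgeR adjusted p = 4.78e-08) and Col6a2 21.5-fold higher (8.92 to 51.9, adjusted p = 4.70e-07). Col6a3 was 2.37-fold higher (1.21 to 4.61, adjusted p = 0.0193), and without AT-3 KCl replicate 3, its lowest library, its log2 difference was 1.01 with an adjusted p of 0.0888. The line difference was thus large for both short chains and small for the α3 chain. In this comparison 74.7% of all tested genes were called at an adjusted p below 0.05, so that being called is no mark of the collagen VI genes. Between E0771 DMSO and AT-3 DMSO, where 74.5% of genes were called, Col6a1 was 28.5-fold higher (adjusted p = 2.85e-08) and Col6a2 22.2-fold higher (adjusted p = 4.11e-07), while Col6a3 did not pass the test at 1.36-fold (0.705 to 2.62, adjusted p = 0.391). The AT-3 DMSO libraries also served as the reference in the choice of the genes.

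**Figure D1:**
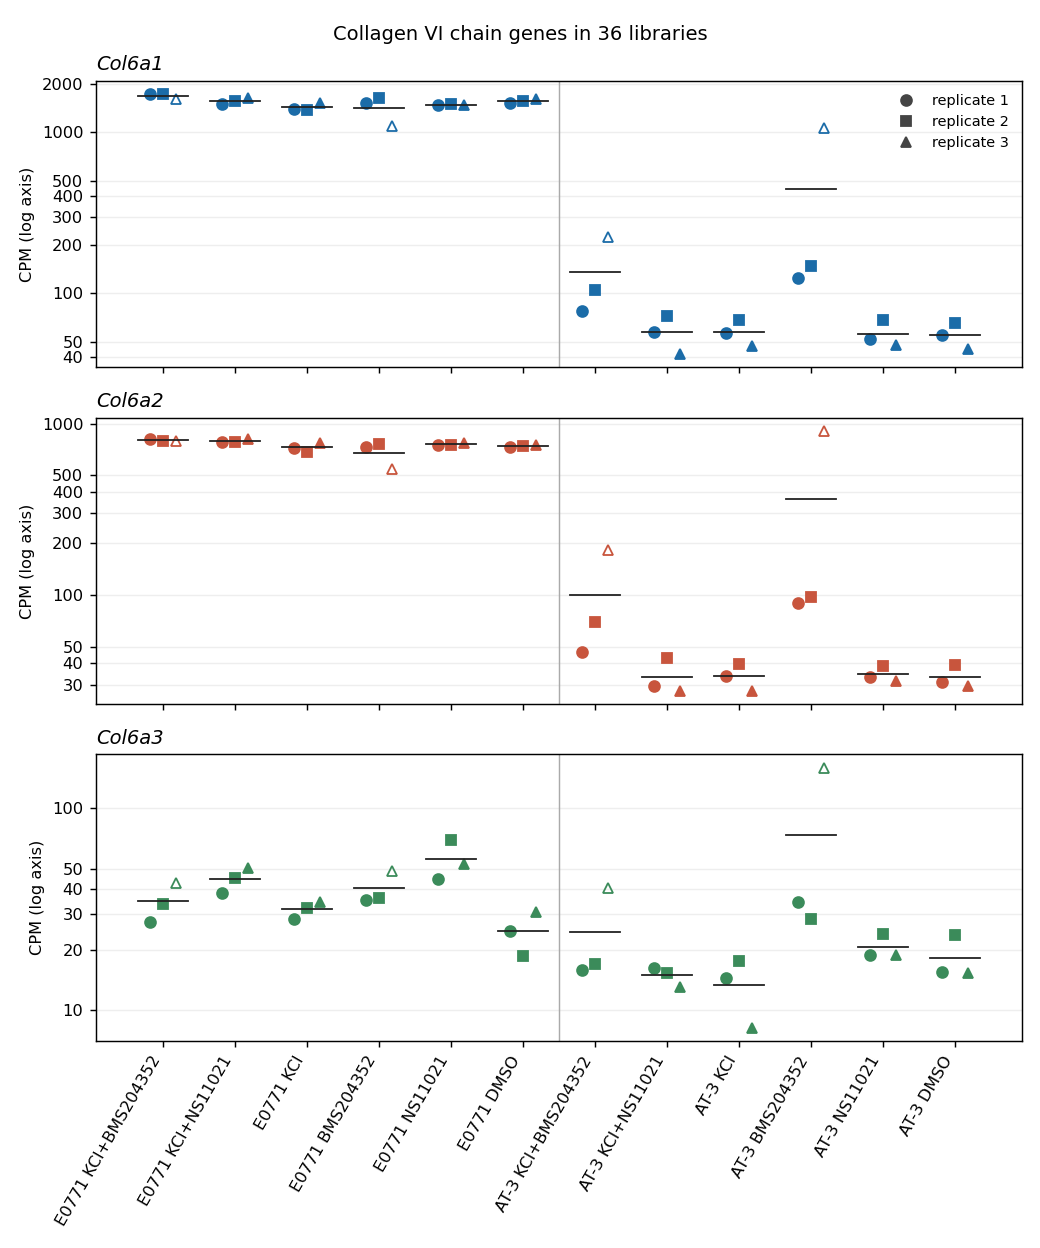
Level of each collagen VI chain gene in every library, in CPM on a log axis, for the 6 E0771 and 6 AT-3 groups. Points are libraries, the marker shape gives the replicate, open triangles mark replicate 3 of groups with BMS204352 and the line is the group mean. Col6a1 lies at 1096 to 1731 CPM in E0771 libraries and at 41.7 to 1065 CPM in AT-3 libraries.

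Ordered by mean level, the groups of the 2 lines stood apart for Col6a1. The lowest were AT-3 DMSO, NS11021, KCl and KCl+NS11021, whose means lay between 55.2 and 57.2 CPM and whose ranges overlapped. AT-3 KCl+BMS204352 and BMS204352 followed, overlapping each other, and all 6 E0771 groups lay above, with means between 1413 and 1693 CPM. For Col6a2 the order was alike, but the range of AT-3 BMS204352 reached that of E0771 BMS204352 because of a single library at 907 CPM. For Col6a3 every group overlapped its neighbour in the order, which ran between 13.4 ± 4.78 CPM in AT-3 KCl and 73.7 ± 73.5 CPM in AT-3 BMS204352, with E0771 NS11021 next below at 55.8 ± 12.9 CPM.

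In AT-3 cells all 3 chain genes were higher in every BMS204352 library than in any DMSO library, which is the difference they were chosen for. Col6a1 stood at 124, 148 and 1065 CPM in replicates 1 to 3 with BMS204352, against 55.3, 65.3 and 45.1 CPM with DMSO. Col6a2 stood at 90.1, 97.7 and 907 CPM with BMS204352, against 31.1, 39.3 and 29.7 CPM with DMSO. Col6a3 stood at 34.4, 28.3 and 159 CPM with BMS204352, against 15.5, 23.6 and 15.4 CPM with DMSO. Replicate 3 with BMS204352 was by far the highest library for each gene and set most of the group mean. It reached 19.3-fold the DMSO mean for Col6a1, 27.2-fold for Col6a2 and 8.74-fold for Col6a3. Replicates 1 and 2 reached 2.25-fold and 2.68-fold for Col6a1, 2.70-fold and 2.93-fold for Col6a2, and 1.90-fold and 1.56-fold for Col6a3. The order of the genes, Col6a2 above Col6a1 above Col6a3 in fold, was the same in each of the 3 libraries.

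The depth behind these values was not small: Col6a1 had 5622, 6908 and 50211 counts with BMS204352, against 2373, 2902 and 2356 with DMSO. The fitted log2 differences were 3.0 ± 0.73 for Col6a1, 3.44 ± 0.82 for Col6a2 and 2.01 ± 0.60 for Col6a3 (SE). Without replicate 3 of the groups with BMS204352 they were 1.30 ± 0.26, 1.49 ± 0.23 and 0.78 ± 0.27, in the same order of genes. Against AT-3 NS11021 cells the log2 differences were 2.99, 3.40 and 1.85, with the same BMS204352 libraries. Against DMSO, 5.27% of all tested genes were called in either direction and 3.28% as higher with BMS204352. Nothing is read from these shares, since that contrast chose the genes.

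Markers of other cell types were summed in the same libraries. The 8 fibroblast markers summed to 426 to 626 CPM with BMS204352 and 504 to 630 CPM with DMSO in AT-3, nearly all of it Postn, while Dpt was at 0 and Dcn at 0.249 CPM with BMS204352 and 0.0383 CPM with DMSO. The 5 leukocyte markers summed to 8.92 to 23.1 CPM with BMS204352 and 4.54 to 6.24 CPM with DMSO, most of it Cd68, with Ptprc and Cd3e at 0. Cd68, a lysosomal membrane protein, averaged 13.3 CPM with BMS204352 and 4.75 CPM with DMSO (log2 difference 1.48 ± 0.37, edgeR adjusted p = 0.0359). The 5 endothelial markers summed to 2.62 to 4.37 CPM with BMS204352 and 1.68 to 1.89 CPM with DMSO, with Pecam1 called higher (1.02 ± 0.26, adjusted p = 0.0273). The 6 epithelial markers summed to 2552 to 2931 CPM with BMS204352 and 2120 to 2265 CPM with DMSO, with Krt14 and Epcam called higher. The part of these shifts in the collagen VI values was not tested.

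When BMS204352 was added on top of KCl in AT-3, the chain genes were again higher in the compound group, but by less and without passing the test. Col6a1 stood at 77.4, 105 and 225 CPM with KCl+BMS204352, against 56.6, 67.8 and 47.0 CPM with KCl. Col6a2 stood at 46.5, 70.2 and 183 CPM with KCl+BMS204352, against 33.7, 39.8 and 27.6 CPM with KCl. Col6a3 stood at 15.8, 17.0 and 40.5 CPM with KCl+BMS204352, against 14.4, 17.6 and 8.20 CPM with KCl. For Col6a1 and Col6a2 the groups did not overlap, and for Col6a3 they did, with no share over all genes to set beside this. Replicate 3 with KCl+BMS204352 was the highest library for each gene, at 3.95-fold, 5.43-fold and 3.02-fold the KCl mean. Over many genes its deviations from its group mean correlated with those of BMS204352 replicate 3 (r = 0.67), a library behind the choice of the genes. Replicates 1 and 2 stood at 1.36-fold and 1.84-fold for Col6a1, 1.38-fold and 2.08-fold for Col6a2, and 1.18-fold and 1.27-fold for Col6a3.

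The fitted fold was 2.37 for Col6a1 (95% interval 0.836 to 6.72, edgeR adjusted p = 0.398), 2.95 for Col6a2 (0.918 to 9.51, adjusted p = 0.342) and 1.82 for Col6a3 (0.734 to 4.51, adjusted p = 0.52). Without replicate 3 of the groups with BMS204352 the log2 differences were 0.67 ± 0.26 (adjusted p = 0.264), 0.79 ± 0.23 (adjusted p = 0.141) and 0.29 ± 0.28 (adjusted p = 0.73). The intervals therefore reach well above a doubling as well as below no difference. Over all genes 1.24% were called, 183 of 14772, and 619 with the replicate number as a block. Against KCl+NS11021, where 0.454% of genes were called, the log2 differences of KCl+BMS204352 were 1.24 ± 0.69 for Col6a1, 1.58 ± 0.78 for Col6a2 and 0.71 ± 0.60 for Col6a3, with adjusted p of 0.502, 0.446 and 0.676. Fibroblast markers summed to 659 to 889 CPM with KCl+BMS204352 and 806 to 949 CPM with KCl, and epithelial markers to 2100 to 2340 CPM with KCl+BMS204352 and 2134 to 2203 CPM with KCl. Leukocyte markers summed to 5.01 to 8.77 CPM with KCl+BMS204352 and 3.18 to 4.99 CPM with KCl, and endothelial markers to 2.49 to 2.64 CPM with KCl+BMS204352 and 1.58 to 2.48 CPM with KCl. The leukocyte and endothelial sums did not overlap between the groups, and their part in the collagen VI values was not tested.

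The interaction of KCl with BMS204352 in AT-3 uses the contrast behind the choice and is a description. Its log2 values were -1.76 ± 0.97 for Col6a1, -1.88 ± 1.08 for Col6a2 and -1.15 ± 0.84 for Col6a3. The difference with the compound was thus smaller in KCl for each gene, and leaving out a single library brought these values to between -2.66 and 0.08.

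Neither KCl nor NS11021 alone shifted a chain gene detectably in AT-3. The DMSO libraries of these comparisons also served as the reference in the choice of the genes. Col6a1 stood at 52.3, 68.3 and 47.9 CPM with NS11021 and 56.6, 67.8 and 47.0 CPM with KCl, against 55.3, 65.3 and 45.1 CPM with DMSO. These libraries overlapped throughout, and replicate 2 was the highest of each group. Log2 differences from DMSO with NS11021 were 0.01 ± 0.69, 0.04 ± 0.77 and 0.17 ± 0.60 for Col6a1, Col6a2 and Col6a3 (edgeR adjusted p = 0.997, 0.994 and 0.979). With KCl they were 0.04 ± 0.69, 0.01 ± 0.77 and -0.44 ± 0.61 (adjusted p = 0.985, 0.997 and 0.786). The 95% interval for Col6a3 with KCl ran between 0.295-fold and 1.83-fold. KCl+NS11021 against KCl gave 0.00 ± 0.69, -0.02 ± 0.77 and 0.15 ± 0.61, each with an adjusted p of 1. These errors include the spread of the libraries with BMS204352, and without the third of those the errors of the KCl comparison were 0.24, 0.21 and 0.25, still with no call. Of all genes, 4.83% were called with KCl, 0.0745% with NS11021 and 0.0203% when NS11021 was added to KCl. With the replicate number as a block, 1124 genes were called against 714 without it for KCl, 42 against 11 for NS11021 and 8 against 3 for KCl+NS11021 over KCl.

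In E0771 cells Col6a3, the gene of the α3 chain, rose with NS11021 and with BMS204352, while neither short chain gene passed the test in the main fit. Col6a3 stood at 44.5, 69.9 and 53.0 CPM with NS11021, against 24.7, 18.6 and 30.7 CPM with DMSO. It stood at 35.3, 35.8 and 49.2 CPM with BMS204352. Every library of either compound was above every DMSO library, and replicate 2 gave both the highest NS11021 value and the lowest DMSO value. The raw counts were 1634, 2512 and 2571 with NS11021, 1296, 1292 and 2071 with BMS204352, and 1018, 740 and 1066 with DMSO.

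Col6a3 rose 2.26-fold with NS11021 (95% interval 1.61 to 3.19, log2 1.18 ± 0.23, edgeR adjusted p = 0.0021). The log2 value stayed between 0.99 and 1.36 when any 1 library was left out, and the gene was called under every alternative run. With BMS204352 it rose 1.63-fold (1.16 to 2.30, log2 0.71 ± 0.23, adjusted p = 0.043), a call lost without BMS204352 replicate 3 (adjusted p = 0.174), DMSO replicate 1 (0.107) or DMSO replicate 2 (0.155). With NS11021 26.3% of all genes were called and 12.8% were called higher, and with BMS204352 22.7% and 11.3%, so 1 call among 3 genes is not far from the background. Between the compounds, where 1.76% of genes were called, BMS204352 stood at 0.721-fold NS11021 for Col6a3 (0.517 to 1.01, adjusted p = 0.393), so a difference between them was not shown. The Col6a1 and Col6a2 differences there were -0.07 (adjusted p = 0.85) and -0.15 (adjusted p = 0.543) on the log2 scale.

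The short chain genes in E0771 differed little from DMSO with any treatment. Col6a1 stood at 1480, 1494 and 1483 CPM with NS11021 and 1517, 1627 and 1096 CPM with BMS204352, against 1526, 1568 and 1624 CPM with DMSO. Col6a2 stood at 747, 751 and 767 CPM with NS11021 and 732, 761 and 540 CPM with BMS204352, against 730, 735 and 753 CPM with DMSO. BMS204352 replicate 3 was the lowest library of the line for both genes, though it was the highest of its group for Col6a3. With NS11021 the fold was 0.943 for Col6a1 (0.804 to 1.11, edgeR adjusted p = 0.618) and 1.02 for Col6a2 (0.888 to 1.17, adjusted p = 0.87). The small Col6a1 difference with NS11021 was called with only the groups compared. With BMS204352 the log2 differences were -0.15 ± 0.11 (adjusted p = 0.344) and -0.13 ± 0.09 (adjusted p = 0.368). The intervals with NS11021 exclude a change in either short chain gene as large as the fitted rise of Col6a3.

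Among the markers, the E0771 fibroblast sum was 151 to 165 CPM with NS11021, 165 to 177 CPM with BMS204352 and 160 to 181 CPM with DMSO. The leukocyte sum was 20.3 to 21.2 CPM with NS11021, 15.9 to 16.4 CPM with BMS204352 and 10.2 to 11.2 CPM with DMSO. Most of it was Cd68, which rose with NS11021 (1.55 ± 0.13, edgeR adjusted p = 6.98e-10) and BMS204352 (1.22 ± 0.13, adjusted p = 1.11e-07). The endothelial sum was 0.779 to 1.69 CPM with NS11021, 0.490 to 1.05 CPM with BMS204352 and 0.654 to 1.02 CPM with DMSO. The epithelial sum was 214 to 225 CPM with NS11021, above and without overlap with DMSO at 200 to 206 CPM, and 199 to 221 CPM with BMS204352. The part of these shifts in the Col6a3 values was not tested.

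In the main fit KCl alone did not move a chain gene past the test in E0771, where 36.4% of genes were called. The log2 differences from DMSO were -0.13 ± 0.11 for Col6a1 (edgeR adjusted p = 0.385), -0.03 ± 0.09 for Col6a2 (adjusted p = 0.851) and 0.37 ± 0.23 for Col6a3 (adjusted p = 0.251). These errors include the spread of the libraries with BMS204352. The Col6a1 difference was called with only the groups compared, and also without the third libraries with BMS204352. On top of KCl, Col6a3 stood at 38.3, 45.2 and 50.9 CPM with KCl+NS11021, against 28.4, 32.1 and 34.4 CPM with KCl. The KCl+NS11021 libraries were all above the KCl libraries, but the 1.41-fold difference (1.01 to 1.99, adjusted p = 0.16) did not pass in the main fit. That difference was called with only the groups compared. With KCl+BMS204352 Col6a3 stood at 27.5, 33.7 and 42.8 CPM, overlapping KCl, at a log2 difference of 0.13 ± 0.23 (adjusted p = 0.75). Called shares were 17.2% for KCl+NS11021 and 19.9% for KCl+BMS204352, each against KCl.

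For the short chain genes KCl+NS11021 differed from KCl by 0.12 ± 0.11 for Col6a1 (edgeR adjusted p = 0.494) and 0.13 ± 0.09 for Col6a2 (adjusted p = 0.407) on the log2 scale. For KCl+BMS204352 the differences were 0.24 ± 0.11 (adjusted p = 0.148) and 0.14 ± 0.09 (adjusted p = 0.331). Col6a1 stood at 1727, 1731 and 1621 CPM with KCl+BMS204352, against 1401, 1376 and 1531 CPM with KCl, so these groups did not overlap, and likewise for Col6a2. These small differences passed the test once the third libraries with BMS204352 were left out, at adjusted p of 2.06e-05 for Col6a1 and 0.0013 for Col6a2 in the KCl+BMS204352 comparison. Between KCl+BMS204352 and KCl+NS11021, with 4.96% of genes called, the log2 differences were 0.11 (adjusted p = 0.669), 0.01 (adjusted p = 0.959) and -0.37 ± 0.22 (adjusted p = 0.469) for Col6a1, Col6a2 and Col6a3. The interaction of KCl with BMS204352, with 1.62% of genes called, was 0.39 ± 0.15 for Col6a1 (adjusted p = 0.276), 0.27 ± 0.13 for Col6a2 (adjusted p = 0.413) and -0.58 ± 0.32 for Col6a3 (adjusted p = 0.5).

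**Figure D2:**
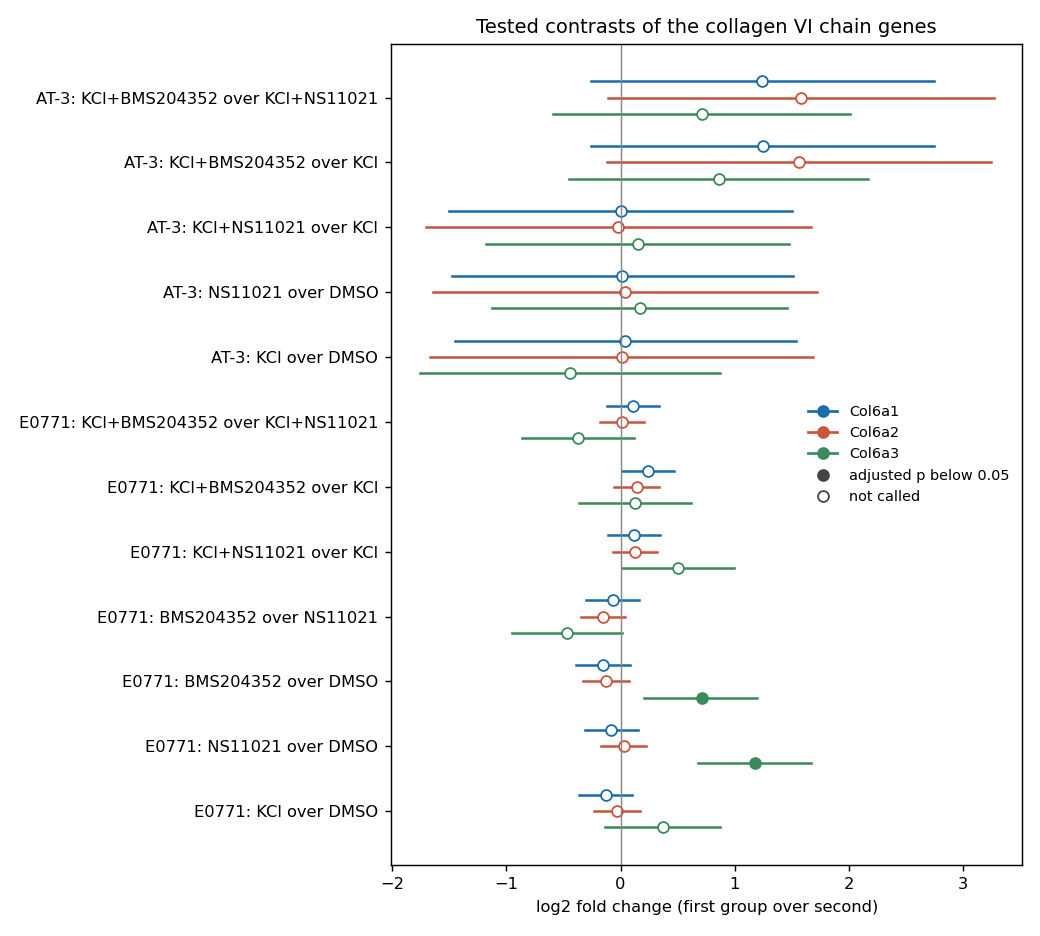
Log2 fold changes of the chain genes in the 12 tested contrasts within a line, first group over second, with 95% intervals; filled points have an adjusted p below 0.05. The filled points are Col6a3 in E0771 with NS11021 (1.18) and with BMS204352 (0.71), and the AT-3 intervals are the wider ones.

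Whether the lines differed in response was tested for the contrasts that did not choose the genes. The NS11021 and KCl contrasts do share the AT-3 DMSO libraries, which served as the reference in that choice. For NS11021 the E0771 effect minus the AT-3 effect was -0.11 for Col6a1 (edgeR adjusted p = 1), -0.02 for Col6a2 (adjusted p = 1) and 1.0 ± 0.64 for Col6a3 (adjusted p = 0.447). Thus the rise of Col6a3 with NS11021 in E0771 was not shown to differ from AT-3. For KCl the differences were -0.18 (adjusted p = 0.999), -0.04 (adjusted p = 1) and 0.80 ± 0.65 (adjusted p = 0.542). For KCl+BMS204352 against KCl they were -1.02 ± 0.69 (adjusted p = 0.491), -1.43 ± 0.76 (adjusted p = 0.353) and -0.74 ± 0.65 (adjusted p = 0.625). No chain gene passed in these comparisons, which called 3.99%, 9.14% and 3.37% of all genes for NS11021, KCl and KCl+BMS204352. None had an unadjusted p below 0.05. DESeq2 called neither Col6a1 nor Col6a3, and it gave no adjusted p for Col6a2 in any of these comparisons. For BMS204352 against DMSO the difference is a description, at -3.17, -3.58 and -1.32 for Col6a1, Col6a2 and Col6a3.

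The balance between the chains is described by treatment in both lines. In E0771 Col6a1 over Col6a2 per kb averaged between 3.74 and 4.04 in every group. The size of this ratio depends on the exon lengths used. In plain CPM it was 2.09, 2.13 and 2.16 in the E0771 DMSO libraries. Per kb, the libraries lay at 3.68 to 3.78 with NS11021, 3.68 to 3.84 with KCl and 3.67 to 3.81 with KCl+NS11021, each below the DMSO libraries at 3.97 to 4.10. The ratio of Col6a1 to Col6a3 spread more widely. Col6a1 over Col6a3 was 75.2 ± 16.3 with NS11021, 101 ± 34.7 with BMS204352 and 181 ± 44.1 with DMSO. The NS11021 libraries, at 58.4 to 90.9, lay below the DMSO libraries, at 145 to 230, without overlap, and so did the BMS204352 libraries, at 60.9 to 124. With KCl the ratio was 138 ± 34.0 for KCl+BMS204352, 96.4 ± 10.1 for KCl+NS11021 and 125 ± 9.17 for KCl alone, the KCl libraries at 117 to 135 again below DMSO. In AT-3 the same ratio was 15.2 ± 1.76 with KCl+BMS204352, 10.4 ± 2.13 with KCl+NS11021, 12.3 ± 2.89 with KCl, 14.2 ± 4.26 with BMS204352, 7.45 ± 0.472 with NS11021 and 8.44 ± 1.16 with DMSO. KCl libraries, at 10.5 to 15.6, lay above the DMSO libraries, at 7.56 to 9.76, as did the BMS204352 libraries, at 9.84 to 18.4, by a narrow gap. Col6a2 over Col6a3 was 5.65 ± 2.31 with BMS204352, in libraries at 3.76 to 8.22, and 2.69 ± 0.260 with DMSO, in libraries at 2.39 to 2.89. With KCl it was 3.82 ± 0.883, in libraries at 3.24 to 4.83, again above DMSO. Col6a1 over Col6a2 was 2.58 ± 0.325 with BMS204352 and 3.14 ± 0.248 with DMSO. In E0771 Col6a2 over Col6a3 lay at 15.5 to 24.1 with NS11021 and 15.8 to 30.5 with BMS204352, below DMSO at 35.3 to 56.8. With KCl it lay at 30.5 to 36.6 and overlapped DMSO. So a lower share of Col6a3 was seen in AT-3 with KCl as well as with BMS204352, and a higher share in E0771 with either compound. With KCl in E0771 a higher share without overlap was seen against Col6a1 only. These ratios are descriptions and were not tested, and no share over other pairs of genes is set beside them. The AT-3 BMS204352 and DMSO ratios use the libraries of the contrast that chose the genes.

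**Figure D3:**
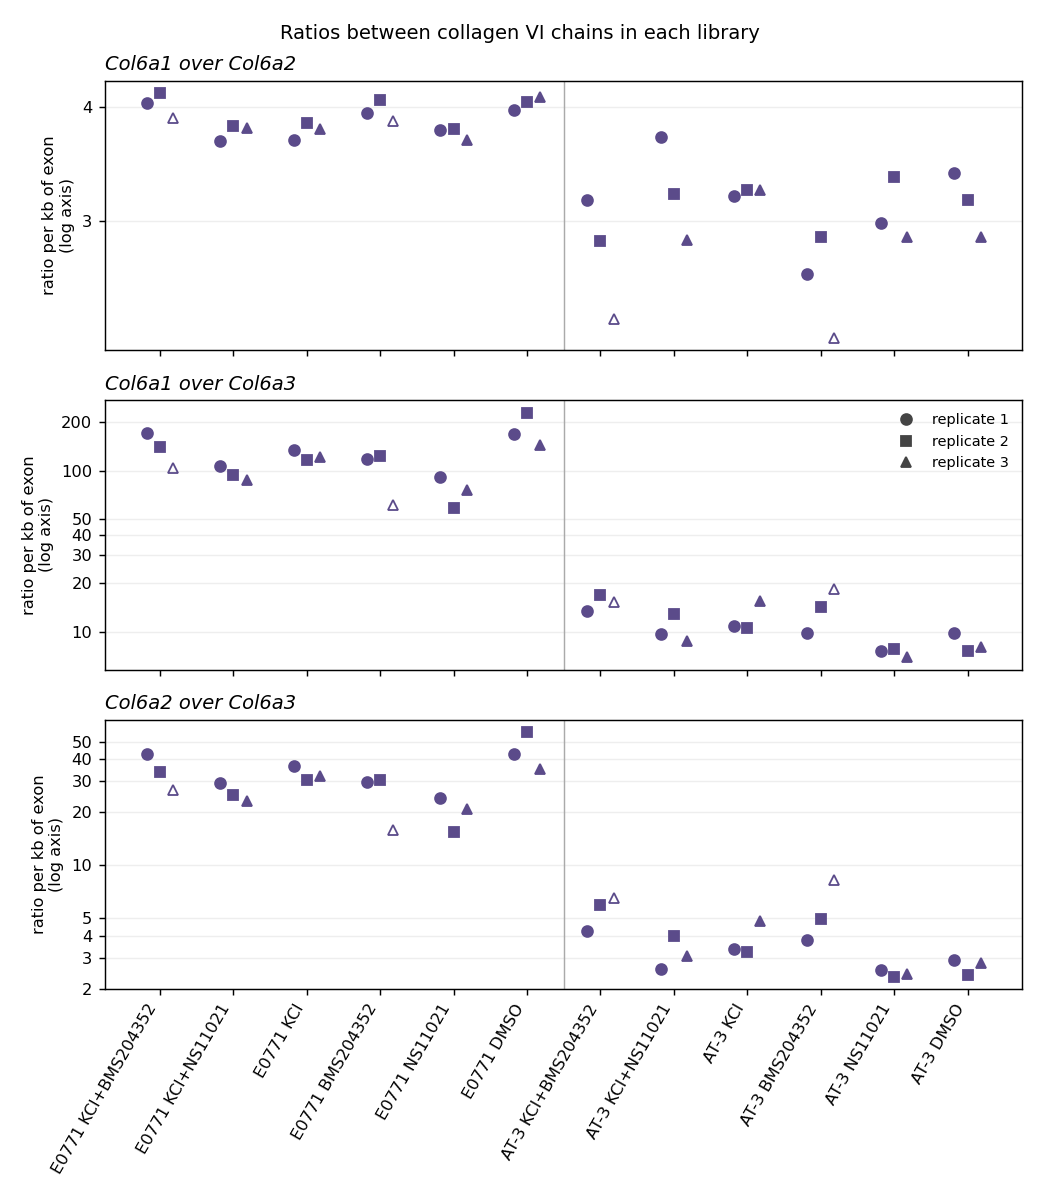
Ratio of each pair of chain genes per kb of exon in every library, on log axes, for E0771 and AT-3 groups, with the replicate given by marker shape and open triangles for replicate 3 of groups with BMS204352. Col6a1 over Col6a3 averages 75.2 in E0771 NS11021 and 181 in E0771 DMSO, and 14.2 in AT-3 BMS204352 and 8.44 in AT-3 DMSO.

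Genes around collagen VI were read by role. The 8 receptor genes comprise the collagen-binding integrin chains Itga1, Itga2, Itga10, Itga11 and Itgb1, the proteoglycan Cspg4 and the anthrax toxin receptors Antxr1 and Antxr2. In AT-3 none of the 8 was called by edgeR with BMS204352 (3 at an unadjusted p below 0.05, 0 by DESeq2), with a median log2 difference of 0.37 against -0.00 over all genes. Cspg4 had the largest value, 4.97 ± 1.57 (edgeR adjusted p = 0.0738), at only 0.543 CPM with BMS204352 and 0.0155 CPM with DMSO. In E0771 6 receptors were tested. Itgb1 rose by a small amount with NS11021 (0.12 ± 0.03, adjusted p = 0.0124) and Antxr2 rose with BMS204352, at 23.6 CPM against 17.7 CPM with DMSO (0.41 ± 0.11, adjusted p = 0.00655). With KCl 3 of the 6 receptors rose, where 36.4% of all genes were called: Itga10 at 14.6 CPM against 4.29 CPM with DMSO (1.76 ± 0.13, adjusted p = 2.18e-12), Itga1 (0.51 ± 0.08) and Itgb1 (0.27 ± 0.03). When BMS204352 was added to KCl 2 of 6 receptors fell, where 19.9% of all genes were called, Itga10 (-0.50 ± 0.12, adjusted p = 0.00269) and Itgb1.

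The 8 matrix partners, which bind or neighbour collagen VI in the matrix, include biglycan (Bgn), decorin (Dcn), fibronectin (Fn1), perlecan (Hspg2) and Vwa1. None of the 5 tested in AT-3 was called by edgeR with BMS204352 (median log2 0.32, 1 at an unadjusted p below 0.05, 0 by DESeq2). In E0771 Vwa1 fell with NS11021 (-0.81 ± 0.22, edgeR adjusted p = 0.00652) and with BMS204352 (-0.67 ± 0.21, adjusted p = 0.0253). Bgn fell with BMS204352 (-0.99 ± 0.22, adjusted p = 0.00182) and with KCl+BMS204352, at 5.48 CPM against 11.4 CPM with KCl (-1.06 ± 0.19, adjusted p = 1.46e-04). With KCl against DMSO 2 of the 5 tested rose, Bgn and Tnxb, where 36.4% of all genes were called.

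The 13 genes of collagen modification and secretion cover the prolyl and lysyl hydroxylases, the collagen chaperone Serpinh1 and export factors. In AT-3 with BMS204352, where 5.27% of all genes were called, 1 of the 13 was called, the lysyl hydroxylase Plod3. It stood at 124 CPM against 95.8 CPM with DMSO (0.36 ± 0.10, edgeR adjusted p = 0.0493), and was not called without the third libraries with BMS204352. In E0771 the called genes of this list were lower with either compound, whereas Col6a3 was higher. With NS11021 6 of 13 fell and 0 rose (median -0.12), where 13.5% of all genes were called lower. They included the prolyl hydroxylase chain P4ha2, at 72.1 CPM against 103 CPM with DMSO (-0.51 ± 0.06, adjusted p = 2.04e-07), Crtap (-0.26 ± 0.05) and Serpinh1, at 1384 CPM against 1539 CPM (-0.16 ± 0.03, adjusted p = 5.66e-04). With BMS204352 4 fell and 0 rose (median -0.10), where 22.7% of all genes were called in either direction. Serpinh1 led, at 1308 CPM against 1539 CPM with DMSO (-0.24 ± 0.03, edgeR adjusted p = 5.16e-06), and 2 genes of the list fell without the third libraries. Against KCl, 4 fell with KCl+NS11021 and 3 with KCl+BMS204352, while KCl against DMSO gave 6 higher and 2 lower, where 17.2%, 19.9% and 36.4% of all genes were called in these 3 comparisons.

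Of the 5 matrix proteases, Mmp11, which cleaves the α3 chain in mouse, rose in E0771 with NS11021, at 45.8 CPM against 33.0 CPM with DMSO (0.47 ± 0.08, edgeR adjusted p = 4.53e-05). It also rose with BMS204352, at 48.0 CPM (0.54 ± 0.08, adjusted p = 1.11e-05). It was the 1 protease of 5 called in each of these contrasts, where 26.3% of all genes were called with NS11021 and 22.7% with BMS204352. Mmp2 and Furin fell with KCl+BMS204352 against KCl in E0771, and none of the 5 was called by edgeR in AT-3 with BMS204352 (1 at an unadjusted p below 0.05, 0 by DESeq2). Of the 11 TGF-beta genes, ligands, receptors and targets of a known inducer of collagen genes, 1 rose and 1 fell in AT-3 with BMS204352. There 5.27% of all genes were called. The ligand Tgfb1 stood at 88.6 CPM against 65.4 CPM with DMSO (0.43 ± 0.11, adjusted p = 0.0366), and the receptor Tgfbr2 at 133 CPM against 195 CPM (-0.57 ± 0.10, adjusted p = 0.00533). Without the third libraries with BMS204352, Tgfbr2 alone was called (-0.47, adjusted p = 0.0223). In E0771 3 of 11 rose and 1 fell with NS11021 (26.3% of all genes called), the rises led by the latent TGF-beta binding protein Ltbp1 (0.45 ± 0.06, adjusted p = 6.15e-06). With BMS204352 (22.7% of all genes called) 2 rose, Ltbp1 and Skil, and 2 fell, among them the inhibitor Smad7 (-0.22 ± 0.07, adjusted p = 0.0168). TGF-beta genes thus moved in both directions in each line. Across these receptor, partner, modification, protease and TGF-beta lists, 42 genes were tested in AT-3. With KCl+BMS204352 against KCl edgeR called 0 of them, with 7 at an unadjusted p below 0.05 and 2 called by DESeq2. With NS11021 against DMSO it called 0, with 3 at an unadjusted p below 0.05 and 0 called by DESeq2, and with KCl+NS11021 against KCl all 3 counts were 0. With KCl against DMSO, where 4.83% of all genes were called, 4 were called, with Furin, Skil and Tgfb3 higher and Crtap lower.

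Of 38 collagen genes other than VI, 30 were tested in AT-3 and 22 in E0771. In AT-3 with BMS204352, 2 were higher and 6 lower, with a median log2 of 0.08, where 5.27% of all genes were called, and without the third libraries with BMS204352 4 were higher and 2 lower. With KCl+BMS204352 against KCl 1 was higher and 4 lower, where 1.24% of all genes were called. In E0771 2 were higher and 1 lower with NS11021 (26.3% of all genes called), and 1 higher and 3 lower with BMS204352 (22.7%).

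The genes within 200 kb of the chain genes were read for their own values. Around the chromosome 10 pair 6 neighbours were tested, and none was called by edgeR in AT-3 with BMS204352 (2 at an unadjusted p below 0.05, 1 by DESeq2). Lss, an enzyme of sterol synthesis 38624 bases from Col6a2, differed by -0.48 ± 0.17 (edgeR adjusted p = 0.115). Around Col6a3, 2 of 4 were called higher. In this comparison 5.27% of all genes were called, and 3.28% were called higher. Mlph, which links melanosomes to myosin and lies 71114 bases away, stood at 2.03, 1.76 and 5.64 CPM with BMS204352, against 0.373, 0.900 and 0.306 CPM with DMSO (2.57 ± 0.50, adjusted p = 0.00645). Lrrfip1, 154766 bases away, stood at 106, 105 and 183 CPM with BMS204352, against 79.5, 80.6 and 78.3 CPM with DMSO (0.72 ± 0.18, adjusted p = 0.0401). In both genes the groups did not overlap and replicate 3 was again the highest, and both stayed called without the third libraries with BMS204352 (Mlph 1.84, adjusted p = 0.0324; Lrrfip1 0.40, adjusted p = 3.02e-04). Cops8, on the other side of Col6a3, differed by 0.10 (adjusted p = 0.435). With KCl+BMS204352 against KCl no neighbour was called by edgeR (1 on each chromosome at an unadjusted p below 0.05, 0 by DESeq2), Mlph standing at 1.60, 1.29 and 3.12 CPM, against 0.646, 0.937 and 0.702 CPM with KCl (1.39 ± 0.49, adjusted p = 0.161). In E0771 with NS11021, the contrast in which Col6a3 rose, none of the 4 neighbours of Col6a3 was called by edgeR (1 at an unadjusted p below 0.05, 0 by DESeq2). There 26.3% of all genes were called. With BMS204352 in E0771, where Col6a3 also rose, 2 of the 4 fell, Cops8 (-0.16, adjusted p = 0.0271) and Mlph (-0.21, adjusted p = 0.046). There 22.7% of all genes were called in either direction.

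**Figure D4:**
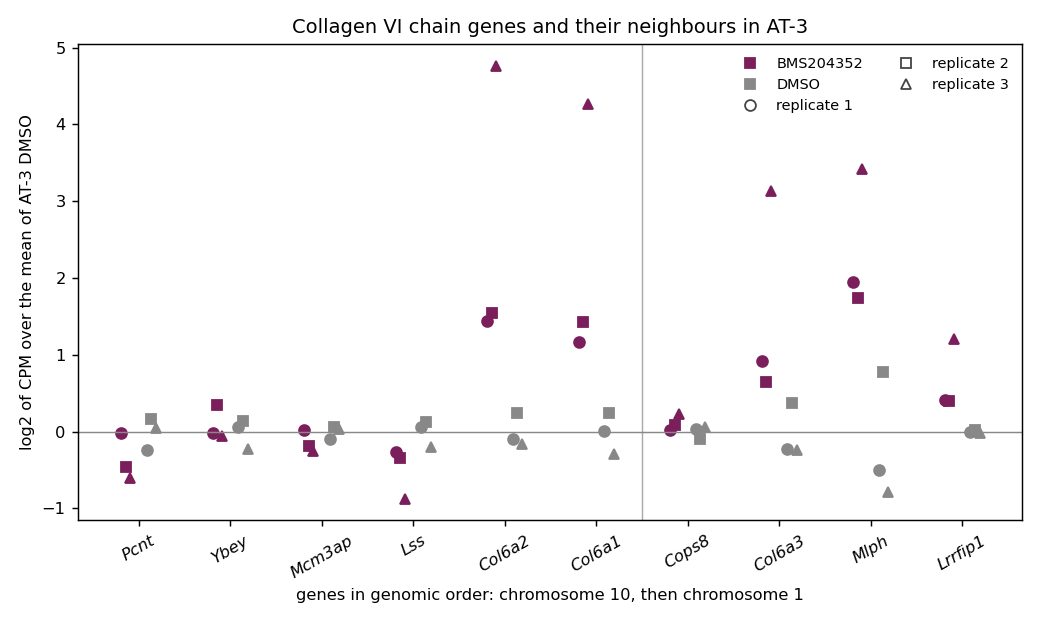
Level of the chain genes and of neighbours within 200 kb with a DMSO mean of at least 0.5 CPM in AT-3, as log2 of CPM over the AT-3 DMSO mean, in order along the chromosome, with BMS204352 libraries left of DMSO libraries. The chain genes, Mlph and Lrrfip1 stand above their DMSO libraries in each BMS204352 library, and Mlph averages 3.14 CPM with BMS204352.

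The genes whose pattern was most like that of the chain genes were found by Pearson r with the mean centred log2 CPM of the 3 genes. In the 18 AT-3 libraries, among 10214 genes, these were Zfand2a (r = 0.99), Lgals3 (0.98), Ecm1 (0.97), Cd44 (0.96) and Lrrfip1 (0.96). Zfand2a encodes a zinc finger protein that joins the proteasome under arsenite stress, Lgals3 the lectin galectin-3, Ecm1 a secreted matrix protein and Cd44 the hyaluronan receptor. Lgals3 stood at 303, 354 and 1329 CPM with BMS204352, against 161, 164 and 152 CPM with DMSO. Ecm1 stood at 88.5, 97.1 and 284 CPM with BMS204352, against 56.1, 55.0 and 55.8 CPM with DMSO, and Zfand2a at 53.5, 51.7 and 177 CPM, against 37.1, 38.2 and 37.0 CPM. Each of the 5 was highest in BMS204352 replicate 3, so r over these libraries, which share their treatments, leans on that library. Without the third libraries with BMS204352 the 5 genes most alike were Rhoj, Itga6, Kcnn4, Fbln5 and Parm1 (r between 0.94 and 0.96, 16 libraries). The list of genes most alike thus depended on those libraries.

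**Figure D5:**
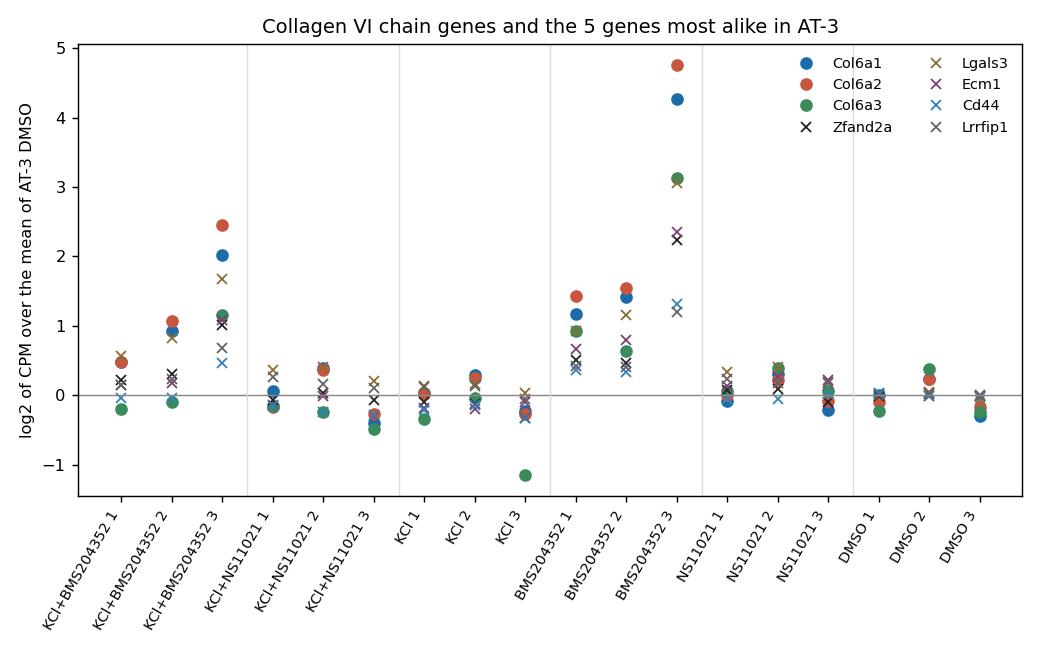
Chain genes (circles) and the 5 genes most alike in AT-3 (crosses) in each of the 18 AT-3 libraries, as log2 of CPM over the AT-3 DMSO mean. All 8 genes are highest in BMS204352 replicate 3, where Col6a2 is 27.2-fold and Lgals3 stands at 1329 CPM.

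In the 18 E0771 libraries, where Col6a3 varied more than the short chain genes, the genes most alike among 9461 were Crim1 (r = 0.89), Fam120a (0.87), Oxct1 (0.86), Pcdhgc5 (0.85) and Usp3 (0.84). Crim1, a membrane protein that binds BMPs, ranged between 40.8 and 59.3 CPM. No gene was among the 5 most alike in both lines.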

How the data were processed

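The authors deposited whole-number read counts per gene for 36 libraries. Per the submitters' processing notes they aligned to GRCm38 with STAR and counted with featureCounts, with versions and strand setting not given in the sources used here. Gene symbols came from GENCODE vM21. All 36 columns were mapped by title. Among counts of 1 to 10, 84.5% were even, so halved counts were run as an alternative.

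CPM, ratios, fold changes and tests were computed here in R 4.3.3 with edgeR 4.0.16 (filterByExpr with a minimum count of 10 and minimum total of 15, TMM factors of 0.979 to 1.02, robust quasi-likelihood test) on the 18 libraries of each line. Comparisons between lines were fitted over all 36. P-values were Benjamini-Hochberg adjusted over the 14772 (AT-3), 13357 (E0771) or 15969 (both) genes tested, with a threshold of 0.05. Alternatives included DESeq2 1.42.0 and leaving out each library in turn. The code was tested on simulated data. Intervals cover the fitted spread between libraries only.

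Replicate numbers are shared across groups. Correlations of same-numbered libraries' deviations were all over 0.1 in 9 of 15 pairs of groups in AT-3 (-0.10 to 0.67) and 3 of 15 in E0771 (-0.13 to 0.43). By this rule AT-3 KCl and NS11021 pair with DMSO, KCl+NS11021 and KCl+BMS204352 with KCl in AT-3, and KCl+BMS204352 with KCl+NS11021 in E0771. BMS204352 and KCl+BMS204352 pair too, at 0.41, 0.44 and 0.67 for replicates 1 to 3 in AT-3 and 0.24, 0.20 and 0.43 in E0771. The pairing comes from the data alone.

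The collagen VI genes and the lists of receptors, matrix partners, modification genes, proteases, TGF-beta genes, other collagens and cell type markers were chosen with earlier results of these data known. Named genes were the 3 chain genes, up to 4 called list members of smallest adjusted p in comparisons with BMS204352, tested neighbours within 200 kb and the 5 genes per line of highest Pearson r. Other list members named for their roles, for NS11021 or for KCl were chosen after their values were seen. The values of 1 list member are not reported here.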

Additional observations from a re-analysis of the deposited data

How the results depend on the processing

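Of the alternative values, 983 counted as unchanged, 22 descriptive values moved, 15 tests became called and 7 lost a call. A tested value counted as unchanged if it stayed on its side of the threshold, even if an uncalled difference changed sign. A descriptive value did so if it shifted by less than the SD of log2 CPM in its first group. That SD was wide in AT-3 BMS204352, so large shifts there also counted as unchanged. The rise of Col6a3 in E0771 with NS11021 was called in every alternative (adjusted p 4.61e-06 with DESeq2 to 0.0343 with only the groups compared). The replicate block changed no chain gene's call. Col6a3 with BMS204352 in E0771 was not called with only the groups compared (0.70, adjusted p = 0.0779), with no filter (0.71, 0.0632) or without replicate 3 of the groups with BMS204352 (0.53, 0.143), and ran between 0.53 and 0.89 on leaving out 1 library.

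Without the third libraries with BMS204352 the AT-3 descriptions shrank: Col6a2 against DMSO was 1.49 and against NS11021 1.45, the AT-3 interaction was -0.63 for Col6a1 and -0.70 for Col6a2, and E0771 minus AT-3 was -1.29, -1.47 and -0.25 for Col6a1, Col6a2 and Col6a3 (Col6a2 -3.17 with the replicate block). In E0771 small differences then passed: Col6a1 with KCl -0.13 (0.00431), KCl+NS11021 over KCl 0.12 (0.0111) and 0.12 for Col6a2 (0.002), KCl+BMS204352 over KCl 0.27 (2.06e-05) and 0.15 for Col6a2 (0.0013), KCl+BMS204352 over KCl+NS11021 0.14 (0.018) and the interaction 0.26 (0.00707). With only the groups compared, calls were Col6a1 with KCl -0.13 (0.00186) and NS11021 -0.08 (0.0162), KCl+NS11021 over KCl 0.12 (0.015), Col6a2 0.12 (0.00423) and Col6a3 0.49 (8.53e-05), and KCl+BMS204352 over KCl 0.24 (5.34e-05) and Col6a2 0.14 (0.00865). The cause of these changes was not tested.

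Leaving out 1 library in turn, Col6a2 in AT-3 ran between 1.49 and 3.90 against DMSO and 1.45 and 3.86 against NS11021; the AT-3 interaction between -2.33 and -0.05 (Col6a1), -2.66 and 0.07 (Col6a2) and -1.73 and 0.08 (Col6a3); the line difference in the BMS204352 effect between -3.59 and -1.44, -4.02 and -1.61, and -1.69 and -0.07; the E0771 interaction of Col6a1 between 0.23 and 0.50 (called without BMS204352 replicate 3, adjusted p = 0.0136); and Col6a3 in E0771 KCl over AT-3 KCl between 1.01 and 1.52.

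Counts of called genes that moved by over 1.5 times were, for AT-3 KCl, 714 (block 1124, without the 4 libraries 1345, lowest without 1 library 393). For AT-3 NS11021 they were 11 (DESeq2 70, block 42, without the 4 libraries 146, only the groups compared 83, lowest 0). For AT-3 KCl+NS11021 over KCl they were 3 (14, 8, 39, 23 and 0 in that order, no filter 7). For AT-3 KCl+BMS204352 they were 183 over KCl (DESeq2 510, block 619, lowest 20) and 67 over KCl+NS11021 (DESeq2 241, block 303, without the 4 libraries 106, only the groups compared 189, lowest 4). For AT-3 BMS204352 they were 779 (DESeq2 1375, block 1455, without the 4 libraries 449, only the groups compared 10, without 1 library 146 to 1743). In E0771 they were 2663 for KCl+BMS204352 over KCl (1759 without its replicate 3), 235 for BMS204352 over NS11021 (no filter 419, only the groups compared 0, without 1 library 109 to 406), 663 for KCl+BMS204352 over KCl+NS11021 (without the 4 libraries 1081, lowest 356) and 217 for the interaction (DESeq2 406, no filter 415, block 335, without the 4 libraries 373, only the groups compared 111, lowest 83). Between lines they were 637 for NS11021 (DESeq2 1031, block 1056, without the 4 libraries 1206, only the groups compared 1143, lowest 270) and 538 for KCl+BMS204352 (DESeq2 958, block 939, lowest 279). DESeq2 gave no adjusted p for Col6a2 in 5 comparisons between lines. Depth was high for the chain genes, so the spread between libraries, not counting error, limits these values.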

Other observations

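By Spearman's rho in place of Pearson's r, the genes most like the chain genes over the 18 AT-3 libraries were Atp1b1 (0.97), Ceacam1 (0.95), Fbln2 (0.95), Kcnn4 (0.95) and Sdk2 (0.94). Kcnn4 encodes a calcium-activated potassium channel, and it was also among the 5 genes most alike by Pearson's r without the third libraries with BMS204352 (r = 0.94). Fbln2 encodes the matrix protein fibulin-2. In E0771 they were Ccar2 (0.91), Cep131 (0.88), Crim1 (0.88), Iars2 (0.88) and Mta1 (0.87), and Pearson's r without the third libraries with BMS204352 gave Crim1 (0.92), Fbln2 (0.91), Tln2 (0.90), Lpp (0.90) and Adamtsl3 (0.90). These are descriptions over libraries that share their treatments.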
